A study of Arabidopsis thaliana with 33 samples.

Results

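A set of 444 Arabidopsis genes was defined by being high in 3 of the mutants studied and low in 6 other genotypes. The 3 were the decay mutants ein5-1 and ski2-2 and the triple mutant ski2-2 dcl4-2 dcl2-1. A gene was taken when its lowest FPKM in those 3 was at least 5 and at least 1.5 times its highest FPKM in Col-0, dcl4-2, dcl2-1, ski2-2 dcl2-1, ein5-1 dcl2-1 and the triple ein5-1 dcl4-2 dcl2-1. FPKM is a transcript level scaled for gene length and library size. Of 33556 genes listed, 13118 had at least 5 FPKM in each of the 3 and could have been taken, so the 444 were 3.38% of these eligible genes. The values of these 9 genotypes chose the genes, so they are given below as a description and without a test. The double mutants ein5-1 dcl4-2 and ski2-2 dcl4-2 had no part in the choice, and the genes were read in them beside the others.

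All 11 genotypes were measured by sequencing poly(A) RNA from the aerial parts of 20-day-old plants, untreated, raised on MS medium for 6 days and kept in soil for 14 more, and collected at 15:00. Beside the wild type Col-0, plants carried 1 mutation (dcl2-1, dcl4-2, ein5-1 or ski2-2), a decay mutation with 1 Dicer mutation (ein5-1 dcl4-2, ski2-2 dcl4-2, and likewise ein5-1 or ski2-2 with dcl2-1), or a decay mutation with both Dicer mutations. Each mutated gene was represented by 1 allele. The study prepared 3 biological replicates of each genotype, and its authors pooled them into a single FPKM for each gene in each genotype. SDs and n can therefore not be given. The labels do not say whether the replicates were separate sowings.

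EIN5 is the cytoplasmic exoribonuclease that degrades decapped mRNA from its 5′ end, and SKI2 is the helicase that feeds mRNA to the exosome for decay from the 3′ end. Small interfering RNAs are diced from double-stranded RNA by the Dicer-like enzymes DCL4, which makes a shorter class, and DCL2, which makes a longer one. When mRNA decay is impaired, more transcripts can enter siRNA production, and the series' title puts the DCL2 class of siRNAs and stress adaptation at the centre of the study.

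The 4 genotypes that carry ein5-1 had 6.88 to 11.2 FPKM of EIN5 mRNA against 13.4 to 20.8 in the others, and DCL2 mRNA was likewise separated, at 1.23 to 2.35 against 4.89 to 9.02 FPKM. SKI2 and DCL4 mRNA overlapped between mutant and other genotypes. The labelled tissue was checked with marker lists. The 31 photosynthesis genes summed to 141197 to 256634 FPKM in the 9 genotypes of the rule, to 29258 in ein5-1 dcl4-2 and to 51779 in ski2-2 dcl4-2. The 7 root markers summed to 17.3 to 76.1 FPKM in the 9, most of it from PYK10, with TIP2;3 and EXPA7 listed at 0 in several. In the same doubles they summed to 267 and 693 FPKM, of which PYK10 alone gave 254 and 673. The 9 floral markers summed to 9.49 to 35.8 FPKM in all 11. In bulk tissue, fewer cells of a type and less RNA per cell cannot be told apart.

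The 444 genes took 3.83% to 4.35% of all FPKM in the 3 high genotypes, 1.65% in Col-0 and 1.703% in dcl4-2, and 0.899% to 1.02% in the 4 low genotypes that carry dcl2-1. Their median FPKM was 42.5 in ein5-1, 39.6 in ski2-2 and 36.6 in the triple, against 17.8 in Col-0 and 8.51 in dcl2-1. The ratio of the lowest high value to the highest low value, called the gap below, had a median of 1.75 and reached 9.18. It was at least 2 in 120 genes and at least 3 in 24. Within the high genotypes the genes were close in level, with a median ratio of highest to lowest of 1.21, against 1.16 over all eligible genes. The highest of the 3 was ein5-1 for 287 genes (64.6%, against 40.97% of eligible genes), and the lowest was the triple for 278 (62.6%, against 41.2%). The reverse pattern, low in the 3 and high in the 6 by the same ratio, was met by 333 genes. These were 2.73% of the 12190 genes with at least 5 FPKM in each of the 6.

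**Figure D1:**
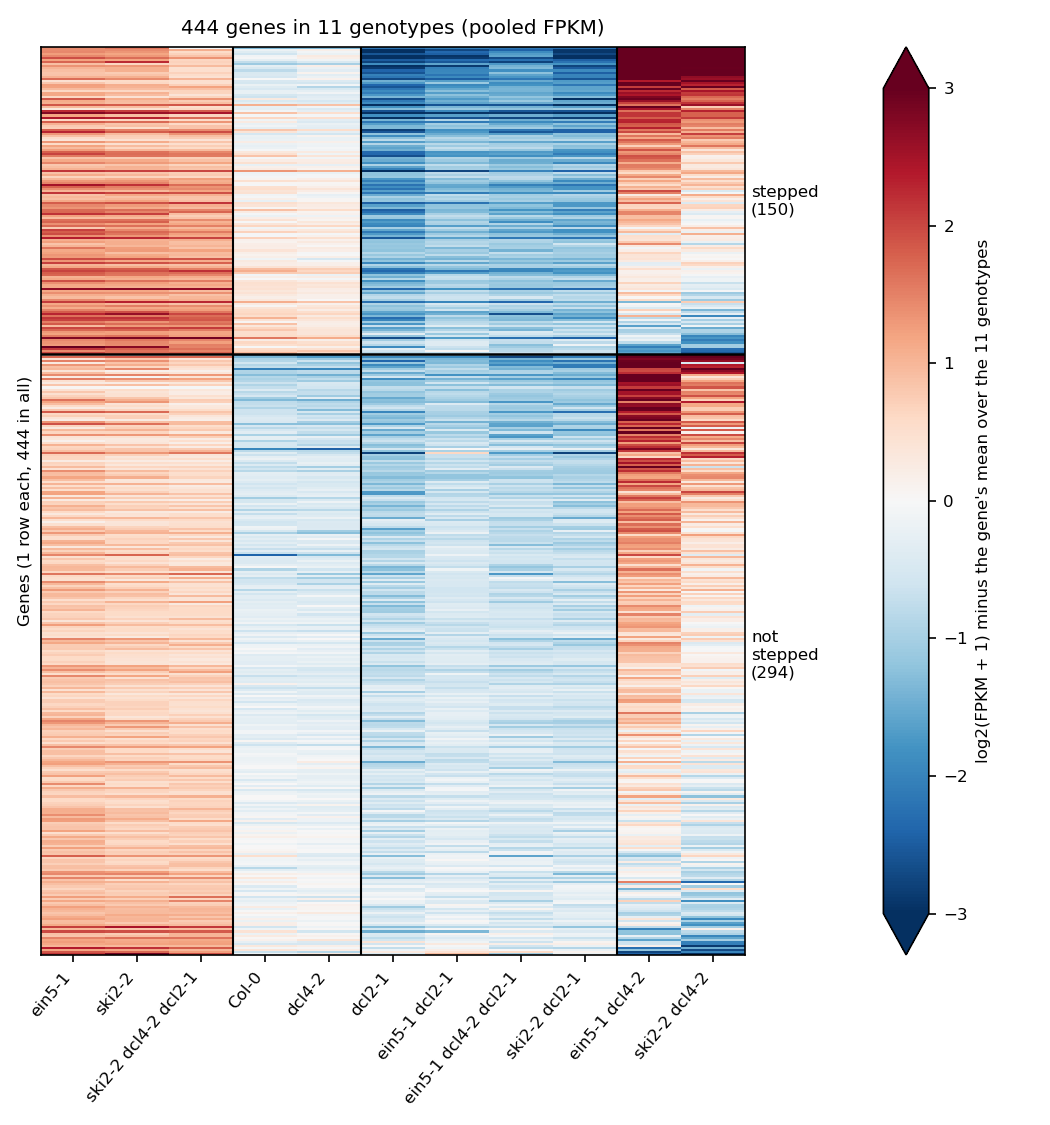
Each row is 1 of the 444 genes and each column 1 genotype; colour gives log2(FPKM + 1) minus the gene's mean over the 11 genotypes, clipped at 3 either way, with vertical lines between the 3 high genotypes, Col-0 and dcl4-2, the 4 low dcl2-1 genotypes and the 2 doubles not used by the rule. The upper block holds the 150 genes that fall a further step in the dcl2-1 columns and the lower block the other 294; the last columns run from far above to far below the first 3.

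The low genotypes were not alike. In 150 genes (33.8%) the lower of Col-0 and dcl4-2 was itself at least 1.5 times the highest of the 4 that carry dcl2-1, a pattern called stepped below, which 5.46% of eligible genes showed. The opposite step was seen in 3 genes (0.676%, against 4.25%). For 357 of the genes the highest of the 6 low values was that of Col-0 or dcl4-2 (80.4%, against 38.5% of eligible genes). The 294 members that were not stepped are called flat. Clock genes differed along the same line, although every genotype was labelled with the same hour. The 13 listed afternoon and evening clock genes summed to 292 to 346 FPKM in the 3 high genotypes, to 499.7 and 507 in Col-0 and dcl4-2, and to 3230.4 to 5473 in the 4 low dcl2-1 genotypes. In ein5-1 dcl4-2 and ski2-2 dcl4-2 the sum was 1814 and 1564 FPKM, between those groups. Much of it came from the RNA-binding protein genes GRP7 and GRP8, at 4108 and 885 FPKM in dcl2-1. ZTL, a light-sensing F-box gene, ran the other way, at 34.8 to 36.4 FPKM in the 3 and 21.5 to 24.7 in the 4. ELF4, a part of the evening complex, was at 3.33, 3.897 and 1.98 FPKM in the high genotypes, at 3.77 and 5.03 in Col-0 and dcl4-2 and at 97.7, 76.6, 47.8 and 63.4 in the 4 low dcl2-1 genotypes. In the same doubles it was at 81.6 and 47.4 FPKM. The part of the clock state in the membership of any gene was not tested.

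The 250 bases before the annotated start of 443 of the genes were read from the RefSeq TAIR10.1 genome and searched for 10 motifs on both strands. The G-box, CACGTG, was present in 22.7% of the stepped and 8.87% of the flat genes, against 7.599% of eligible genes and 5.82% of all 32808 windows. Windows with the site II motif TGGGCC were 10.2% of the members and 18.3% of eligible genes. The heat shock element in its short form GAANNTTC was in 10.8% against 8.94%. Shares of the TATA box TATAAA (45.6% against 45.6%), the W-box core TTGACC (11.5% against 11.6%) and the CCA1-binding site AAAAATCT (6.55% against 6.89%) lay close together. The evening element AAAATATCT (1.35% against 2.43%), the telo-box AAACCCTA (1.81% against 3.36%), the GCC-box GCCGCC (1.13% against 1.95%) and the palindrome TGACGTCA (0.226% against 0.596%) were rare in both. A match describes the letters in the window and shows no bound factor, and the motifs can overlap.

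**Figure D2:**
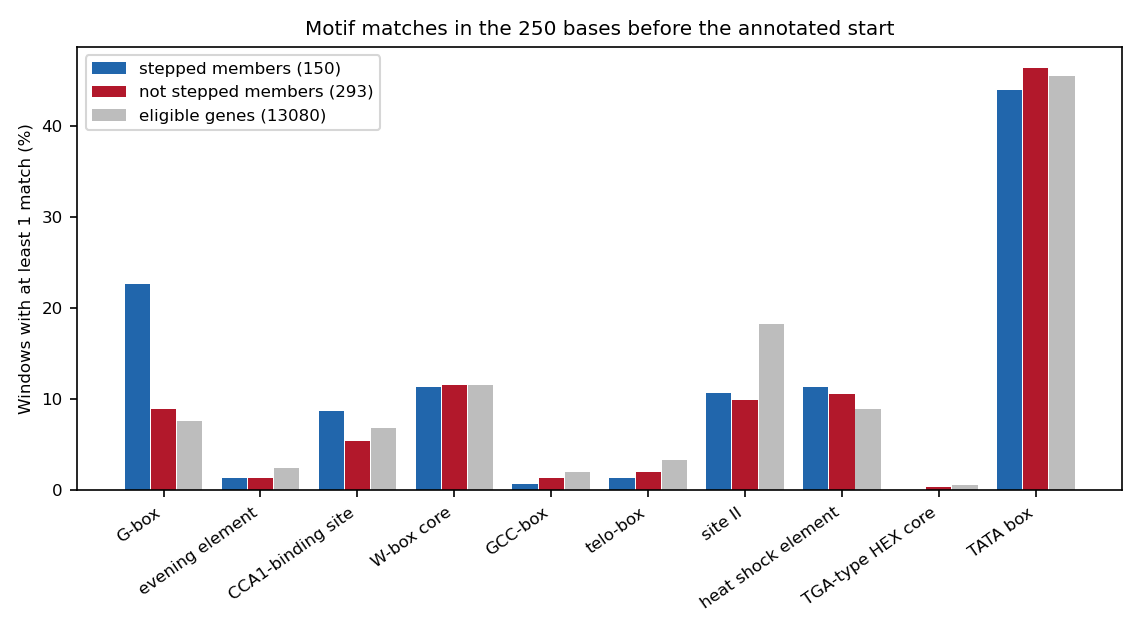
Bars give the percentage of 250-base windows with at least 1 match, for 150 stepped genes, 293 flat genes (labelled not stepped) and 13080 eligible genes. The stepped bar of the G-box, at 22.7%, exceeds its eligible bar at 7.599%, and the site II bars of the members fall short of theirs.

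A few of the stepped genes with a G-box are shown because they span the groups described below, a ubiquitin ligase, both core morning clock genes and enzymes of the flavonoid route. Capitals mark each G-box. PUB19 (AT1G60190, window chr1:22198016-22198265, forward strand) held 3, and LHY (chr1:37872-38121, reverse strand), CCA1 (chr2:19245341-19245590, forward strand), F3H (chr3:19024942-19025191, forward strand) and DFR (chr5:17166033-17166282, reverse strand) held 1 each.
PUB19: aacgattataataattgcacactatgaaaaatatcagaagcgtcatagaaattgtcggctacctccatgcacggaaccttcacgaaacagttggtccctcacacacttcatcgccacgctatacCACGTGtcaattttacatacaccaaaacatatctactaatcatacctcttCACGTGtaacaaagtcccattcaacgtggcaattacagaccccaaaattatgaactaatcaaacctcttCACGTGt
LHY: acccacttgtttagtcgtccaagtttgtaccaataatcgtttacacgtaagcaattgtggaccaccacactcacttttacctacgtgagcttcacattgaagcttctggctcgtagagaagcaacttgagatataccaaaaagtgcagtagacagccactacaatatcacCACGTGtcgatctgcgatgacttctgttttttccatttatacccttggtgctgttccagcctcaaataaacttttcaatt
CCA1: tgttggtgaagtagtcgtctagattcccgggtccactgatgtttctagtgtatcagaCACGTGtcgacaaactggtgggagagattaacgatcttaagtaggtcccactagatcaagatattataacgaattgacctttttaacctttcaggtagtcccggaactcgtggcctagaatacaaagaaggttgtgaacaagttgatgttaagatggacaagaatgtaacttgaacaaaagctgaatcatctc
F3H: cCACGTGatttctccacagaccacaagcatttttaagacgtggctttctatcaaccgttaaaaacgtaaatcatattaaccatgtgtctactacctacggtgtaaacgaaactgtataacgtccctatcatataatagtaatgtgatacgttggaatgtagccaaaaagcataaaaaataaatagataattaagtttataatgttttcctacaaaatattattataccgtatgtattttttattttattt
DFR: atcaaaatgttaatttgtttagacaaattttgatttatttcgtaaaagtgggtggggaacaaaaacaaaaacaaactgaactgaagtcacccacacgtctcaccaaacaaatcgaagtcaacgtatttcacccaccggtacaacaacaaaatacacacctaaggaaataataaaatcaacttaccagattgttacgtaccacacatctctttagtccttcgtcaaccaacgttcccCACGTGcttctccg

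HSFA2 is shown as a flat gene that encodes a heat shock factor and has one of the 12 widest gaps (chr2:11135374-11135623, forward strand), with capitals on its 2 matches to GAANNTTC. Its window also holds a G-box, left in lower case. The windows of PUB19 and LHY above likewise hold GAANNTTC in lower case. Over the set, GAANNTTC was in 11.3% of stepped and 10.6% of flat genes, so the capitals mark no division between them.
HSFA2: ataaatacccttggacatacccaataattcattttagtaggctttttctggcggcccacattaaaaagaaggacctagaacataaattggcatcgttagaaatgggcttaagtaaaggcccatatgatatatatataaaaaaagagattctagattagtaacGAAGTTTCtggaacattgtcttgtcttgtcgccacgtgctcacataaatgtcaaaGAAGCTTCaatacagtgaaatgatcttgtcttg

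A single member encodes a microRNA. MIR163 (AT1G66725) gives a mature miRNA of 24 bases that acts on transcripts of small-molecule methyltransferases. It was chosen after its values were seen. What was sequenced here is its poly(A) primary transcript, not the miRNA, whose sequence (chr1:24884359-24884382, forward strand, RefSeq TAIR10.1) has its seed, bases 2 to 8, in capitals.
MIR163 mature: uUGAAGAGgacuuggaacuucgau
The primary transcript was at 57.5, 51.3 and 49.1 FPKM in ein5-1, ski2-2 and the ski2-2 triple, at 29.6 and 23.63 in Col-0 and dcl4-2, and at 8.56, 12.7, 9.18 and 6.999 in dcl2-1, in ein5-1 dcl2-1, in the ein5-1 triple and in ski2-2 dcl2-1, the order used below. The doubles differed, with 33.1 FPKM in ein5-1 dcl4-2 and 7.15 in ski2-2 dcl4-2, the latter within the range of the low dcl2-1 genotypes.

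The widest gap belonged to HSP70 (AT3G12580, chr3:3991117-3993886 in TAIR10.1), a heat-inducible cytosolic chaperone. It was at 113, 126 and 115 FPKM in ein5-1, ski2-2 and the triple, at 12.3 and 9.83 in Col-0 and dcl4-2, and at 8.38, 8.38, 4.29 and 7.32 in the 4 low dcl2-1 genotypes. In ein5-1 dcl4-2 it was at 348 FPKM and in ski2-2 dcl4-2 at 317. Both doubles were thus above the 3, by 2.95 and 2.69 times their geometric mean, and the low genotypes showed no step of 1.5 between Col-0 and dcl4-2 and the dcl2-1 group. HSP90.1 (AT5G52640), the inducible form of the Hsp90 chaperone, was at 41.6, 44.01 and 38.5 FPKM in the 3, at 5.62 and 4.898 in Col-0 and dcl4-2 and at 6.47, 3.61, 3.86 and 4.65 in the 4. It was at 177 FPKM in ein5-1 dcl4-2 but at 33.8 in ski2-2 dcl4-2, below the 3. HSFA2 (AT2G26150), a heat shock transcription factor that is itself induced by heat, was at 13.2, 8.65 and 6.86 FPKM in the 3 and at 0.662 to 1.27 in the 6. The doubles split in the same way, with 40.6 FPKM in ein5-1 dcl4-2 and 6.64 in ski2-2 dcl4-2.

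Of the 12 listed heat shock genes, 4 reached 5 FPKM in the 3 and all 4 of these were members, against 3.38% of all eligible genes. Eligibility was set in the 3 high genotypes alone, so listed genes could enter this count through being high there. The share is therefore only a description, here and for the other lists, and 4 of all 12 listed genes were members. HSP70 is not among these 12, because RefSeq did not pair its listed symbol, HSP70-4, with its locus. Besides HSP90.1 and HSFA2 the listed members were MBF1C, a heat-induced coactivator, and HSP101, which dissolves protein aggregates. MBF1C (AT3G24500) was at 87.1, 77.8 and 72.5 FPKM in the 3, 19.4 to 31.7 in the 6, 381 in ein5-1 dcl4-2 and 83.7 in ski2-2 dcl4-2. HSP101 (AT1G74310) was at 11.98, 12.02 and 9.34, 2.71 to 5.54, 80.5 and 8.18 FPKM in the same order. None of the 4 was above the highest of the 3 in ski2-2 dcl4-2, and all were in ein5-1 dcl4-2. In the authors' deposited table all 4 were called higher in ein5-1 dcl4-2 than in ein5-1 (against 9.69% of eligible genes), and 0 in ski2-2 dcl4-2 than in ski2-2 (against 5.35%). The first call was not confined to the members, since 11 of the 12 listed genes had it in the authors' deposited table. The small heat shock genes of the list, chaperones that hold unfolding proteins, were not part of the pattern. HSP17.4 was at 2.98, 3.78 and 0.887 FPKM in the 3 and at 1646 in ein5-1 dcl4-2, and HSP21 was at 0.544, 0.337 and 0 against 169.

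A wider reading by RefSeq product was chosen after the values were seen. It found 18 members among 160 eligible genes annotated as heat shock proteins, chaperones or heat shock factors. That is 11.2%, against 3.38% of all eligible genes. None of them was stepped, all 18 were at least 1.5 times the highest of the 6 in ein5-1 dcl4-2, and 9 were in ski2-2 dcl4-2. Among all 444 members these shares were 33.8%, 62.6% and 40.8%, and among eligible genes 5.46%, 16% and 8.08%. They include the Hsp90 genes that RefSeq names HSP81-2 and HSP81-3, further Hsp70 genes and the J-domain genes J2 and J3, partners of Hsp70. A small heat shock gene that was not on the list, AT1G07400, is also among them and is described below. Copies of the Hsp70 and Hsp90 families are near-identical, so how reads were divided between them is uncertain. HSP81-3 (AT5G56010) was at 335, 291 and 277 FPKM in the 3, 101 to 133 in the 6, 274 in ein5-1 dcl4-2 and 172 in ski2-2 dcl4-2. By the biological process notes of RefSeq, 9 of 38 eligible genes noted for response to heat were members, against 3.38% of all eligible genes.

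Flavonoid and anthocyanin genes were the largest listed group. Of 17 listed genes, 14 were eligible and 11 were members (78.6% of the eligible, against 3.38% of all eligible genes). Of these members 10 were stepped, against 33.8% of all members. AT4G14090, also a member, is not among the 17, because RefSeq did not pair its listed symbol, UGT75C1, with its locus. The listed members cover the route from chalcone to anthocyanin and the MYB and bHLH factors that switch it on. F3H (AT3G51240), which makes dihydroflavonols, was at 408, 337 and 269 FPKM in the 3, 103 and 119 in Col-0 and dcl4-2, 9.095, 13.7, 15.6 and 11.6 in the 4, and 1239 and 1148 in ein5-1 dcl4-2 and ski2-2 dcl4-2. The doubles were thus the highest of the 11 and the 4 low dcl2-1 genotypes the lowest, with Col-0 and dcl4-2 between. DFR (AT5G42800), the first enzyme given over to anthocyanin, was at 285, 262 and 193 FPKM in the 3, 97.6 and 127 in Col-0 and dcl4-2, 11.3, 12.8, 34.6 and 10.8 in the 4, and 1347 and 1099.6 in the doubles. LDOX, which follows it, ranged over 206 to 271, 86.03 to 121 and 10.2 to 38.5 FPKM in the same groups and was at 1307 and 941 in the doubles.

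The MYB members PAP1 and MYB90 had wider gaps than the enzymes among the members. PAP1 (AT1G56650), the MYB factor of anthocyanin synthesis, had a gap of 2.796, with 103, 92.4 and 63.1 FPKM in the 3, 18.9 and 22.6 in Col-0 and dcl4-2, 5.94, 13.7, 8.98 and 6.78 in the 4, and 276 and 224 in the doubles. MYB90 (AT1G66390), its close relative PAP2, had a gap of 2.43 but varied within the 3, at 29.7, 42.3 and 13.9 FPKM. It was at 0.3402 to 0.9700 FPKM in the 4 low dcl2-1 genotypes and at 111 and 85.1 in the doubles. TT8 (AT4G09820), their bHLH partner, was at 9.905, 9.89 and 7.77 FPKM in the 3, 3.44 and 3.85 in Col-0 and dcl4-2, 0.474, 0.312, 0.9996 and 0.526 in the 4, and 47.7 and 54.8 in the doubles. The gaps of the other listed members were 1.93 for TT7 (flavonoid 3′-hydroxylase), 1.75 for UGT78D2 and 1.59 for UF3GT (glycosyltransferases), 1.72 for TT5 (chalcone isomerase) and 1.61 for GSTF12, a glutathione transferase needed to store anthocyanin in the vacuole. The eligible genes of the list outside the set included TT4, chalcone synthase, at 1556, 1457 and 851 FPKM in the 3 and 676 and 725 in Col-0 and dcl4-2, a gap under 1.5. TT4 was at 2834 and 2729 FPKM in the doubles. FLS1 and MYB111, also eligible and outside, did not rise in this way. FLS1 was at 115 to 194 FPKM in the 3 and at 37.0 and 96.5 in the doubles. MYB111 was at 6.31 to 7.61 FPKM in the 3 and at 1.84 and 7.37 in the doubles. All 11 members were above the highest of the 3 in both doubles. In the authors' deposited table all 11 were called higher in ein5-1 dcl4-2 than in ein5-1 (against 9.69% of eligible genes) and in ski2-2 dcl4-2 than in ski2-2 (against 5.35%). By the authors' deposited table all were called lower in the ein5-1 triple than in its double (against 15.1%) and in the ski2-2 triple than in its double (against 5.58%). F3H gave a log2 ratio of -6.31 (q 0.000201) for ein5-1 dcl4-2 dcl2-1 over ein5-1 dcl4-2 and -2.09 (q 0.000211) for ski2-2 dcl4-2 dcl2-1 over ski2-2 dcl4-2 in the authors' deposited table.

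**Figure D3:**
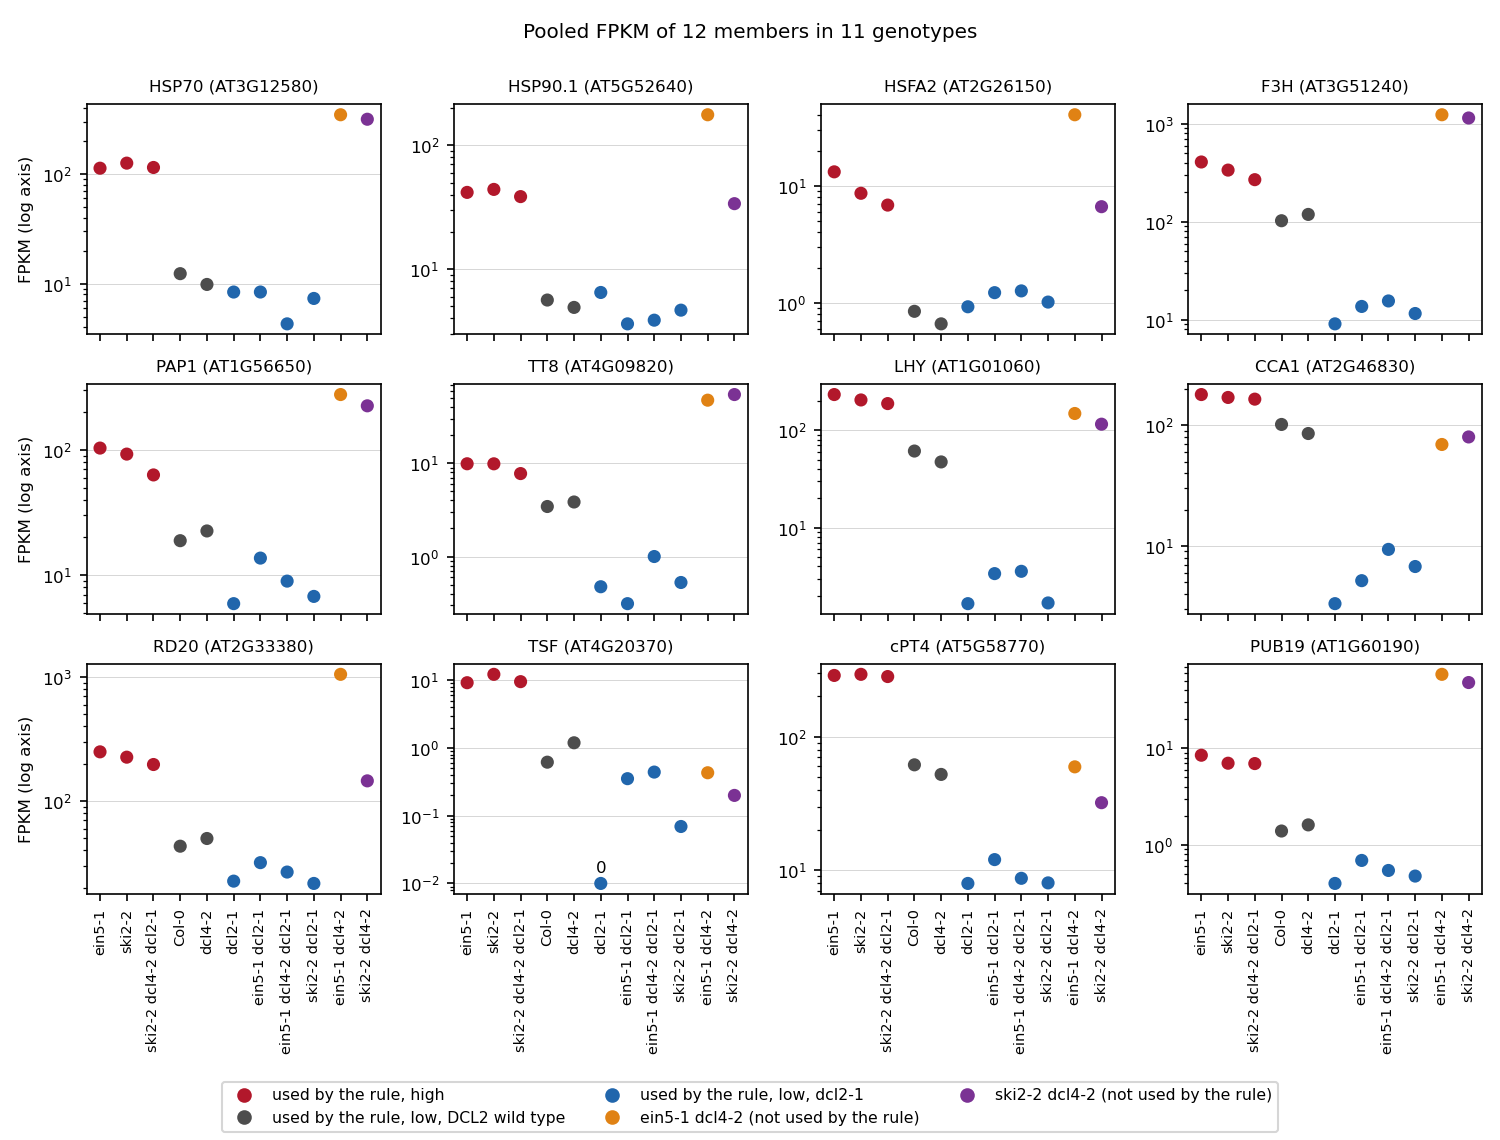
Points give the pooled FPKM (log axis) of 12 members in each of the 11 genotypes; there is 1 value per genotype and hence no error bar, and a listed 0 (TSF in dcl2-1) is drawn at 0.01 and marked. HSP70, HSP90.1 and HSFA2 show no step of 1.5 within the 6 low genotypes, while F3H, TT8, LHY, CCA1, cPT4 and PUB19 drop again in the 4 blue dcl2-1 points; the orange and purple doubles lie above the red points for F3H and PUB19 and below them for TSF and cPT4.

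LHY and CCA1 are the MYB factors that peak at dawn and repress the evening clock genes. Both were members, among 3 of 12 eligible genes of the morning list (25%, against 3.38% of all eligible genes). The other was RVE8, a related MYB activator. LHY (AT1G01060) was at 232, 204 and 188 FPKM in the 3, 61.1 and 47.3 in Col-0 and dcl4-2, 1.66, 3.38, 3.57 and 1.69 in the 4, and 148 and 115 in ein5-1 dcl4-2 and ski2-2 dcl4-2. CCA1 (AT2G46830) was at 179.9, 170.2 and 165, 102 and 85.5, 3.32, 5.14, 9.34 and 6.74, and 69.3 and 80.03 FPKM in the same order. Both genes were therefore at 3 levels. The doubles lay between Col-0 and the 3 for LHY and below Col-0 and dcl4-2 for CCA1, and far above the dcl2-1 group for both. RVE8 (AT3G09600) was at 86.5, 71.3 and 66.8 FPKM in the 3, 43.9 and 35.1 in Col-0 and dcl4-2, 2.61, 6.004, 4.68 and 3.67 in the 4, and 75.1 and 73.7 in the doubles, within the range of the 3. Of the morning list, PRR7 and EPR1 showed the reverse pattern, PRR7 at 15.3 to 18.21 FPKM in the 3 and 33.3 to 54.4 in the 6.

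GBSS1, ASG4 and HYH were stepped as well. GBSS1 (AT1G32900), the starch synthase that makes amylose and a known clock output, was at 612, 565 and 373 FPKM in the 3, 175 and 160.3 in Col-0 and dcl4-2, 10.5, 17.8, 16.3 and 15.3 in the 4, and 399 and 488 in the doubles. ASG4 (AT1G01520), a MYB gene of the RVE8 family, was at 30.9, 27.1 and 22.9 FPKM in the 3, 5.41 and 4.56 in Col-0 and dcl4-2, and 0.0992 to 0.756 in the 4, with 19.9 and 32.5 in the doubles. HYH (AT3G17609), the homologue of the light-signalling bZIP factor HY5, was at 71.1, 75.5 and 71.8 FPKM in the 3 and 2.96 to 6.304 in the 4. HYH was the single member of 5 eligible genes of the light and UV-B list (20%, against 3.38% of all eligible genes). It differed between the doubles, at 91.5 FPKM in ein5-1 dcl4-2 and 25.7 in ski2-2 dcl4-2. B-box factors, zinc finger regulators of light responses, were looked at after their values were seen. Of 14 eligible genes so annotated 5 were members (35.7%, against 3.38% of all eligible genes). Of these members 4 were stepped, against 33.8% of all members. BBX30 (AT4G15248), which was flat, was at 95.3, 85.9 and 103 FPKM in the 3, 22.6 and 13.8 in Col-0 and dcl4-2 and 9.75, 20.5, 8.62 and 16.4 in the 4. BBX31 (AT3G21890) was at 59.1, 35.2 and 41.2 FPKM in the 3 and 1.62, 4.15, 5.34 and 0.976 in the 4, and was above the 3 in ein5-1 dcl4-2 (126 FPKM) and between them in ski2-2 dcl4-2 (47.1 FPKM).

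TSF (AT4G20370, chr4:11000771-11003010), the florigen relative TWIN SISTER OF FT, had the second widest gap at 7.71. It was at 9.19, 12.2 and 9.53 FPKM in the 3, 0.617 and 1.19 in Col-0 and dcl4-2, and 0, 0.352, 0.441 and 0.0693 in the 4. In the doubles it was back at 0.431 and 0.199 FPKM, so that 3 genotypes stood alone above 8 that were at most 1.19 FPKM. In the authors' deposited table TSF was lower in ein5-1 dcl4-2 than in ein5-1 by a log2 ratio of -4.42 (q 0.00398), while the ratio of -5.94 for ski2-2 dcl4-2 over ski2-2 had a q of 0.102. AT1G26790, annotated as a Dof-type zinc finger factor, shared this shape in part, with 9.22, 8.84 and 8.72 FPKM in the 3, 1.396 and 0.8702 in Col-0 and dcl4-2, at most 0.0314 in the 4 and 2.54 and 1.66 in the doubles. Unlike TSF, it was higher in the doubles than in any of the 6. The authors' deposited log2 ratio over dcl4-2 was 1.55 (q 0.00398) for ein5-1 dcl4-2 and 0.94 (q 0.0706) for ski2-2 dcl4-2. cPT4 (AT5G58770), a prenyltransferase by its annotation, was at 287, 292 and 282 FPKM in the 3, 61.6 and 52.2 in Col-0 and dcl4-2, 7.98, 12.03, 8.72 and 8.06 in the 4, and 59.4 and 32.1 in the doubles. For this gene ein5-1 dcl4-2 was thus near Col-0 and dcl4-2, and ski2-2 dcl4-2 was below both. In the authors' deposited table the log2 ratio over Col-0 was -0.05 (q 0.732) for ein5-1 dcl4-2 and -0.93 (q 0.000211) for ski2-2 dcl4-2.

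Of 19 eligible genes of the abscisic acid and drought list, 4 were members (21.1%, against 3.38% of all eligible genes). Among all 30 genes of this list, 3 showed the reverse pattern, P5CS1, COR15A and COR15B. That pattern was met by 2.73% of genes with at least 5 FPKM in each of the 6. P5CS1 was at 9.33 to 13.7 FPKM in the 3 and 35.4 to 70.5 in the 6. COR15A was at 31.1 to 43.3 and 96.9 to 275 FPKM in these groups. RD20 (AT2G33380), a caleosin of lipid droplets that responds to dehydration, was at 249.6, 226 and 197 FPKM in the 3, 43.2 and 49.8 in Col-0 and dcl4-2 and 22.6, 31.8, 26.7 and 21.6 in the 4. Its level was 1055 FPKM in ein5-1 dcl4-2, the highest of the 11, and 146 in ski2-2 dcl4-2, below the 3. HB-12 (AT3G61890), a homeodomain factor induced by abscisic acid, was at 81.9, 67.2 and 63.4 FPKM in the 3 and 9.41 to 26.7 in the 6, with 395 and 216 in the doubles. GolS2 (AT1G56600), a galactinol synthase of drought response, was at 37.1, 50.04 and 24.3 FPKM in the 3, 3.68 and 3.93 in Col-0 and dcl4-2, 8.26, 10.4, 6.07 and 8.04 in the 4, and 75.4 and 192 in the doubles. Unlike most members it was lower in Col-0 and dcl4-2 than in the dcl2-1 group. HAB1 (AT1G72770), a phosphatase that restrains abscisic acid signalling, was at 50.02 to 56.2 FPKM in the 3, 20.4 to 21.5 in Col-0 and dcl4-2 and 6.397 to 8.77 in the 4, with 110.0 and 122 in the doubles. PUB19 (AT1G60190), a U-box ubiquitin ligase known from drought signalling, was at 8.49, 7.02 and 6.96 FPKM in the 3, 1.39 and 1.61 in Col-0 and dcl4-2, 0.399, 0.691, 0.544 and 0.476 in the 4, and 58.4 and 48.1 in the doubles. That is 7.83 and 6.45 times the mean of the 3, far above every other genotype.

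The nitrogen list gave 3 members of 25 eligible genes (12%, against 3.38% of all eligible genes), each close to the ratio of 1.5. AMT1;1 (AT4G13510), an ammonium transporter, was at 182, 165 and 164 FPKM in the 3 and 73.03 to 106 in the 6, with 144 and 91.9 in the doubles. TGA1 (AT5G65210), a bZIP factor of the nitrate response, was at 9.48, 9.08 and 8.68 FPKM in the 3 and 5.02 to 5.65 in the 6, but at 42.1 and 35.9 in the doubles, so that the doubles stood far above all other genotypes. G6PD2 (AT5G13110), a glucose-6-phosphate dehydrogenase, was at 17.1, 17.2 and 16.3 and 8.28 to 10.4 FPKM in these groups and at 49.1 and 20.9 in the doubles. A gene of sulfur-rich defence compounds had yet another shape. MYB29 (AT5G07690), a regulator of aliphatic glucosinolates, was the single member of 15 eligible genes of its list, at 80.1, 73.7 and 77.6 FPKM in the 3, 27.8 to 42.3 in the 6, 9.59 in ein5-1 dcl4-2 and 45.5 in ski2-2 dcl4-2. GBSS1 was the single member of 11 eligible starch and sugar genes (9.09%, against 3.38% of all eligible genes). Among all 17 listed starch and sugar genes, 6 showed the reverse pattern. That pattern was met by 2.73% of genes with at least 5 FPKM in each of the 6. No member came from the other 15 lists, which were afternoon and evening clock (4 eligible), photosynthesis (31 eligible), salicylic acid and immune (15 eligible), jasmonate (11 eligible), early touch, wound and elicitor response (10 eligible), ethylene (11 eligible), RNA decay (22 eligible), RNA silencing (12 eligible), sulfur limitation (6 eligible), iron (7 eligible), phosphate limitation (5 eligible), cell division (11 eligible), auxin response and growth (8 eligible), root markers (1 eligible) and floral markers (1 eligible). In all, 28 of the 444 were on a list, without HSP70 and AT4G14090, whose listed symbols RefSeq did not pair with their loci.

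The 6 members of highest level followed different shapes. PIP2A (AT3G53420), a plasma membrane aquaporin, was at 2546, 2385 and 2722 FPKM in the 3 and 1080.0 to 1576 in the 6, with 2219.5 and 1249 in the doubles. FD1 (AT1G10960), a leaf ferredoxin, was at 2305, 2434 and 2119 FPKM in the 3, 1389.6 and 1249 in Col-0 and dcl4-2, 582, 689, 535 and 517 in the 4 and 531 and 253 in the doubles. VTC2 (AT4G26850), the controlling enzyme of ascorbate synthesis, was at 1261, 1016 and 962 FPKM in the 3, 422 and 378 in Col-0 and dcl4-2, 91.5, 152, 141 and 115 in the 4, and 368 and 302 in the doubles. FD1 and VTC2 were stepped and PIP2A was flat. AT2G41090, an EF-hand calcium-binding protein, was at 2051 to 2145 FPKM in the 3 and 702 to 1306 in the 6, and its level was 1168 in ein5-1 dcl4-2 but 144 in ski2-2 dcl4-2. AT1G65490, an uncharacterized gene, was split between the doubles in the same way, at 517 and 65.1 FPKM, from 748 to 811 in the 3. AT1G73600, a methyltransferase, was at 1003 to 1056 FPKM in the 3, 299 to 546 in the 6, and 293 and 107 in the doubles.

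Read in the doubles that the rule did not use, the genes spread widely. In ein5-1 dcl4-2, 278 of them (62.6%) were at least 1.5 times the highest of the 6 low genotypes, against 16% of eligible genes, and in ski2-2 dcl4-2 181 (40.8%), against 8.08%. Both held for 167 genes (37.6%, against 5.73%). Because the line rests on genotypes the rule used, members start nearer to it than other genes, and the shares are read as a description. Levels above the highest of the 3 were seen for 198 genes (44.6%, against 43.8%) in ein5-1 dcl4-2 and for 109 (24.5%, against 33.8%) in ski2-2 dcl4-2. Levels below the lowest of the 6 were seen for 30 (6.76%, against 32.8%) and 54 (12.2%, against 38.5%), and for 14 genes in both (3.15%, against 25.2%). Relative to the geometric mean of the 3, the median log2 ratio was -0.09 in ein5-1 dcl4-2 and -0.67 in ski2-2 dcl4-2, with ranges of -5.43 to 5.52 and -8.35 to 4.34. Over all eligible genes these medians were 0.01 and -0.14. The stepped genes lay lower than the flat ones in both, at medians of -0.40 and -0.85 against 0.09 and -0.60.

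Neither double had a part in the rule, so their levels can be set against each other, although the authors did not compare them and no test was possible. In 160 genes (36%, against 12.3% of eligible genes) ein5-1 dcl4-2 was at least 2 times ski2-2 dcl4-2, and in 20 (4.5%, against 5.01%) the reverse held. The median log2 ratio of ein5-1 dcl4-2 over ski2-2 dcl4-2 was 0.68 for the set and 0.13 for eligible genes. The photosynthesis and root marker sums given above, the latter mostly from PYK10, also set these doubles apart from the other 9 genotypes. The part of these differences in the levels of the members was not tested.

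**Figure D4:**
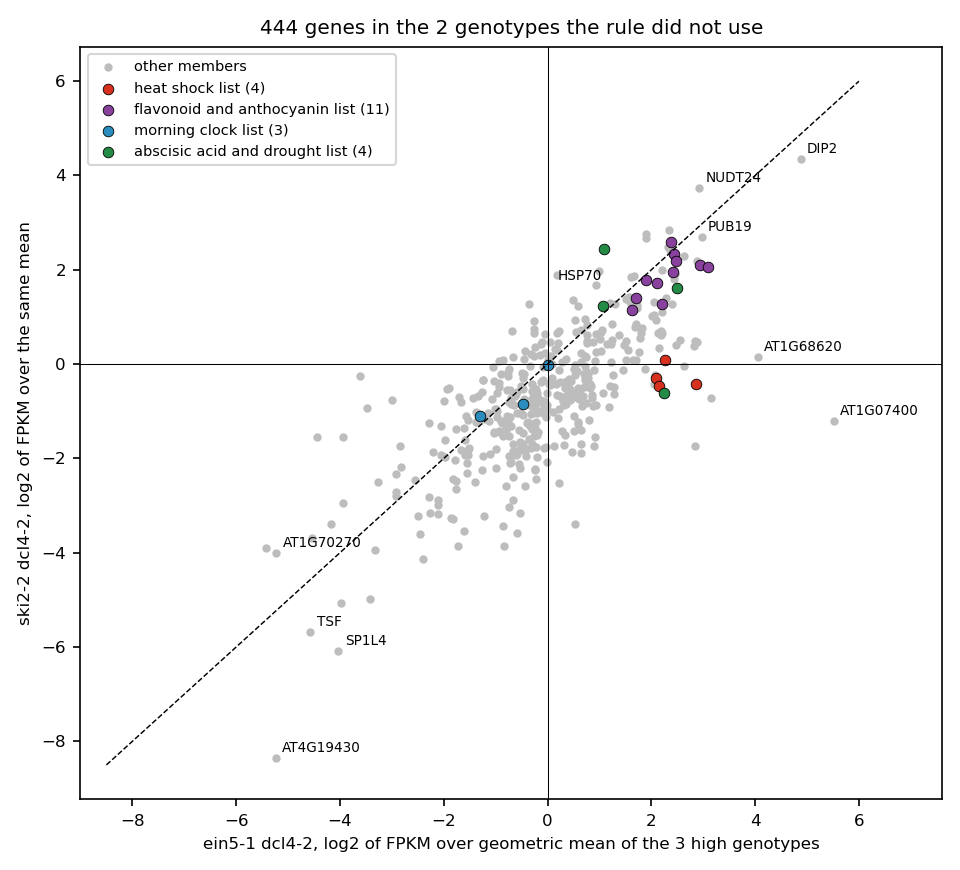
Each point is 1 of the 444 genes; the axes give log2 of FPKM over the geometric mean of the 3 high genotypes, for ein5-1 dcl4-2 (x) and ski2-2 dcl4-2 (y), with equal values on the dashed line and no error bars. The 11 listed flavonoid genes lie above 0 on both axes. The 4 listed heat shock genes, without HSP70, are above 0 on the x axis and near 0 on the y axis. TSF, SP1L4 and AT4G19430 lie far below on both.

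The extremes in the doubles were of several kinds. DIP2 (AT5G03210), annotated as a ubiquitin ligase, was at 12.5, 8.37 and 9.26 FPKM in the 3 and at most 3.24 in the 6, but at 292 and 201 in ein5-1 dcl4-2 and ski2-2 dcl4-2. NUDT24 (AT5G19470), a Nudix hydrolase, was at 17.5, 20.1 and 5.71 FPKM in the 3, 0.447 to 1.79 in the 6 and 95.4 and 167 in the doubles, and the ankyrin repeat gene AT5G15500 at 18.1, 20.2 and 13.5, 0.935 to 7.09, and 86.4 and 122. These genes were high in the 3 but far higher in both doubles. AT1G07400, a small heat shock protein, was at 7.58, 11.6 and 9.83 FPKM in the 3 and 1.24 to 3.57 in the 6, at 436 in ein5-1 dcl4-2 and at 4.13 in ski2-2 dcl4-2, where it was close to the low genotypes. AT1G68620, a hydrolase, was at 9.04 to 11.6 FPKM in the 3 and 3.47 to 5.58 in the 6, with 171 and 11.5 in the doubles. The log2 ratio of ein5-1 dcl4-2 over ein5-1 in the authors' deposited table was 4.54 for DIP2 and 5.85 for AT1G07400 (q 0.000201 for each, the smallest q listed there for the ein5-1 comparisons).

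At the other end, AT4G19430, an uncharacterized gene, was at 79.8, 132 and 69.2 FPKM in the 3, 7.59 to 33.7 in the 6, and 2.39 and 0.276 in the doubles. It was lower in ein5-1 dcl4-2 than in ein5-1 in the authors' deposited table (log2 -5.06, q 0.000201), whereas the log2 ratio of -8.90 for ski2-2 dcl4-2 over ski2-2 had a q of 0.0545. SP1L4 (AT5G15600), of the SPIRAL1 family that binds microtubules, was at 32.1, 26.6 and 27.98 FPKM in the 3, 3.69 to 15.6 in the 6, and 1.76 and 0.422 in the doubles. The thioredoxin-like gene AT3G62960 was at 82.9, 57.1 and 23.5, 1.35 to 8.700, and 1.12 and 3.24 FPKM. These genes were lower in both doubles than in any of the 3. A pair of neighbouring members on chromosome 1 parted in the doubles. UMAMIT36 (AT1G70260, chr1:26456774-26459570), an amino acid transporter family gene, was at 50.6, 47.7 and 41.9 FPKM in the 3, 5.45 to 10.5 in the 6 and 54.2 and 75.3 in the doubles. AT1G70270 (chr1:26464226-26464919), the next gene model, annotated as a transcription factor, was at 54.5, 47.5 and 36.5 and 4.78 to 9.33 FPKM in the same 9 genotypes, close to UMAMIT36, but at 1.22 and 2.84 in the doubles.

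The authors tested 8 comparisons, each with one of these doubles on one side and a genotype used by the rule on the other, so the calls below describe the set and are read as no support for it. A call is a q of at most 0.05, a log2 ratio of at least 1 in size and at least 1 FPKM in a compared genotype. In the authors' deposited table, for ein5-1 dcl4-2 over Col-0, 232 genes were called higher (52.3%, against 15.2% of eligible genes) and 29 lower (6.53%, against 17.1%). Over dcl4-2, which shares the double's libraries with the first comparison, 236 genes were called higher (53.2%, against 14.7% of eligible genes) and 25 lower (5.63%, against 16.1%) in the authors' deposited table. Over ein5-1, by the authors' deposited table, 88 genes were called higher (19.8%, against 9.69% of eligible genes) and 96 lower (21.6%, against 15.6%). For ein5-1 dcl4-2 dcl2-1 over ein5-1 dcl4-2, 11 genes were called higher (2.48%, against 16.6% of eligible genes) and 319 lower (71.8%, against 15.1%) in the authors' deposited table. Most of the set was thus lower in this triple, which the rule required to be low, than in the double.

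For ski2-2 dcl4-2 over Col-0, 145 genes were called higher (32.7%, against 7.37% of eligible genes) and 48 lower (10.8%, against 15.8%) in the authors' deposited table. Over dcl4-2, by the authors' deposited table, 152 genes were called higher (34.2%, against 7.26% of eligible genes) and 48 lower (10.8%, against 14.7%). Over ski2-2 the calls of the authors' deposited table leaned the other way, and 49 genes were called higher (11%, against 5.35% of eligible genes) and 161 lower (36.3%, against 15.9%). For ski2-2 dcl4-2 dcl2-1 over ski2-2 dcl4-2, 152 genes were called higher (34.2%, against 15.9% of eligible genes) and 51 lower (11.5%, against 5.58%) in the authors' deposited table. Here the triple is one of the 3 high genotypes, unlike the ein5-1 triple, so the signs of the last comparison of each family follow in part from the rule.

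**Figure D5:**
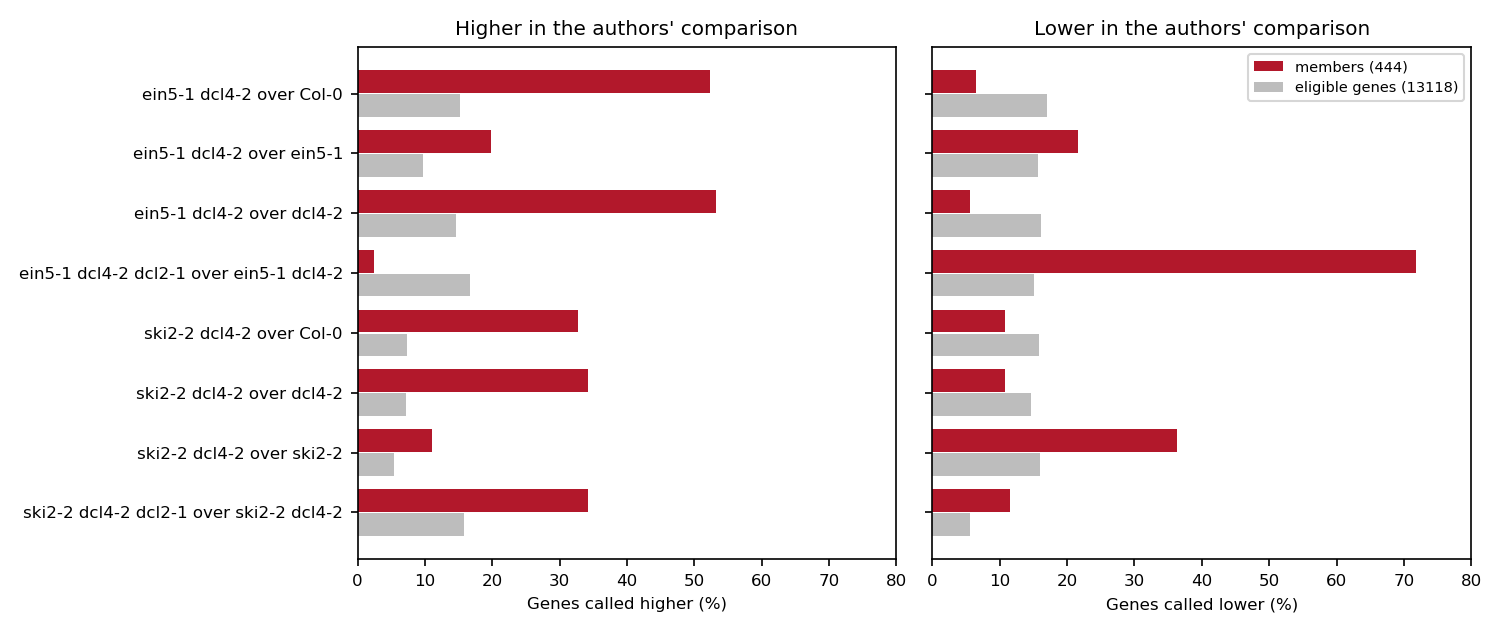
Bars give the percentage of genes called higher (left) or lower (right) in each of the authors' 8 comparisons, for the 444 members (red) and the 13118 eligible genes (grey); every comparison has a genotype of the rule on one side. The longest bar is for genes lower in ein5-1 dcl4-2 dcl2-1 than in ein5-1 dcl4-2, at 71.8% of the members against 15.1%.

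At the border of the rule the change was gradual, since 112 genes had a gap under 1.6. Just inside lay AT1G64500, a glutaredoxin family gene, at 213 to 246 FPKM in the 3 with 142 as the highest of the 6, AT4G24590, a RING finger gene, at 19.5 to 20.9 with 13.00, and PSK5, a precursor of the peptide hormone phytosulfokine, at 29.4 to 50.9 with 19.6. Just outside lay AT4G00500 at 10.4 to 12.1 with 6.97, AT5G01850 at 9.98 to 12.5 with 6.67, and NHX1, a vacuolar sodium-proton exchanger, at 48.6 to 54.4 with 32.5.

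By the RefSeq TAIR10.1 annotation, 437 of 443 annotated members were protein coding and they lay on all 5 chromosomes, none in an organelle. Their median of 3 exons compared with 5 in eligible genes, and 24.7% had a single exon, against 12.2%. Median transcript length was 1675 against 1729 bases. Gene models of 118 members (26.6%, against 32.6%) overlapped another, among the named ones cPT4, ASG4, MBF1C, F3H, HSP101, GSTF12, AT2G41090, AMT1;1 and FD1, and the sources do not state whether counting used strand, so reads of overlapping genes may be divided wrongly. There were 13 pairs of members next to each other on a chromosome.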

How the data were processed

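Poly(A) RNA of 33 libraries, 3 for each of 11 genotypes, was sequenced. Per the submitters' processing notes the authors used TopHat2 2.1.1, Cuffdiff (version not given in the sources used here) and the TAIR10 build. The deposited table gives FPKM values pooled by the authors, 1 per gene and genotype, so the planned tests between libraries could not be run, and read depth is unknown. For 8 comparisons it also gives the authors' log2 ratio, and the p-value and q-value of the authors' test, per the file headers. The authors' log2 ratios for ski2-2 dcl4-2 over Col-0 and over dcl4-2 differ from the ratio of the listed FPKM by a small constant, and the cause was not tested.

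The rule, shares, lists and motifs were computed with pandas 2.3.3 and numpy 2.4.6 under Python 3.11.15 and drawn with matplotlib 3.10.9, and the code was tested on simulated data. The 444 members and the 23 lists were chosen with earlier results of these data known. The lists held 387 entries, after 14 whose symbol RefSeq did not pair with the locus were left out. Members left out of a list in this way included HSP70 (as HSP70-4, heat shock) and AT4G14090 (as UGT75C1, flavonoid and anthocyanin). Named genes were the 12 widest gaps, the 6 highest levels, every list member, the 3 highest and 3 lowest in each double not used by the rule and 3 on either side of the ratio. Symbols came from RefSeq TAIR10.1 and matched 32809 identifiers. Coordinates and sequences are those of TAIR10.1, since the table holds none. A further gene is not reported here. Alternatives were other ratios, FPKM minima and scalings, rules lacking a genotype, and other call thresholds.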

Additional observations from a re-analysis of the deposited data

How the results depend on the processing

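A ratio of 1.3 in place of 1.5 gave 875 genes and a ratio of 2 gave 120. Quantile normalization gave 399 genes, 387 of them among the members, and median-of-ratios scaling 402 with 401. Leaving out each genotype of the rule in turn gave 453 to 659. Under either scaling every listed member stayed higher in each of the 3 than in any of the 6, though 2 nitrogen genes, 1 morning clock gene and 1 flavonoid gene fell under the ratio. A step of 2, chosen after seeing the data, gave 92 stepped genes. With no minimum log2 ratio, the calls in the authors' deposited table became 61 lower over Col-0, 60 lower over dcl4-2, and 171 higher and 204 lower over ein5-1 for ein5-1 dcl4-2, with 23 higher in its triple. For ski2-2 dcl4-2 they became 233 higher and 108 lower over Col-0, 247 and 98 over dcl4-2, and 97 and 278 over ski2-2, with 262 higher and 106 lower in its triple. These rises follow from the looser call. Members higher in ein5-1 dcl4-2 dcl2-1 than in ein5-1 dcl4-2 in the authors' deposited table numbered 7 at a q of 0.01, and likewise 7 with log2(FPKM + 1) and 7 at a minimum of 5 FPKM. The other 87 of the values recomputed stayed within 1.5 times. No paired analysis was possible because the table holds 1 pooled value per genotype, and for the same reason leaving out a replicate was not run. Depth limits low genes such as TSF to an unknown degree.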
